A study of Mus musculus with 8 samples.

Results

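A set of 10 genes was followed in whole lung of mice that overexpress Fra-2. Natural killer (NK) cells use most of them, and Il15 and Il15ra carry the interleukin 15 signal to those cells. The genes were chosen with earlier results of these data known, and their spots were drawn by gene symbol. They are Eomes, Tbx21, Ncr1, Il2rb, S1pr5, Fasl, Il18rap, Txk, Il15 and Il15ra. All 10 were measured, by 12 spots, among 20863 genes read by 31465 named spots of the array's 62976. RNA came from 4 Fra-2 over-expressing (Fra-2 TG) mice and 4 wild-type (WT) mice, all C57BL/6, 8 weeks old, with 1 array per mouse. The labels do not say which promoter drives the transgene or whether the mice were littermates. Levels are log2 of the deposited normalised intensity, and differences are transgenic minus wild type. Levels of different genes come from different probes and are not set against each other.

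NK cells are cytotoxic lymphocytes of the innate immune system, and the lung holds a resident and circulating pool of them. Eomes and Tbx21 (T-bet) are paired T-box transcription factors that drive their maturation. Interleukin 15 keeps NK cells alive: neighbouring cells hold the cytokine on Il15ra and present it to the receptor that NK cells build from Il2rb and the common gamma chain, and signalling runs through the JAK and STAT proteins. Several of the 10 genes, among them Tbx21, Il2rb, Fasl, Il18rap and Txk, are also used by T cells.

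The arrays shared 1 distribution of values, and the mean correlation of a mouse with its group was 0.976 to 0.985, lowest in WT mouse 4 and TG mouse 4. Fosl2, which encodes Fra-2, had 2 spots: the brighter one spanned 9.38 to 10.62 in transgenic and 10.12 to 11.01 in wild-type lung, and the dimmer one 6.35 to 7.85 in transgenic and 3.44 to 5.58 in wild-type lung. On the brighter spot the groups overlapped, with the transgenic range lower, so it does not separate the genotype labels. On the dimmer spot every transgenic value was above every wild-type value, the direction the labels give. Which part of Fosl2 each spot reads is not known. All 7 lung markers listed (Sftpc, Sftpb, Scgb1a1, Ager, Cldn18, Pecam1 and Cdh5) lay above the floor for dim signals in both groups. That floor, 4.74 on the log2 scale, is the median of all spots.

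Of the 10 genes, 1 passed the test and fell, Ncr1, and 9 did not pass (limma, p adjusted over all 20863 genes, threshold 0.05). Over all genes, 0.0911% passed and fell and 0.216% passed in either direction. The median difference of the 10 was -0.84, against 0.01 over all genes. In 8 of the 10 the difference was negative, and in Il15 and Il15ra it was positive. Groups did not overlap, with transgenic lung lower, in 5 of the 10 (Eomes, Tbx21, Ncr1, S1pr5 and Fasl), where 2.54% of all genes behaved so. The same 5 had an unadjusted limma p under 0.05 with transgenic lung lower, against 3.82% of all genes. Because the 10 were chosen with earlier results of these data known, these shares are description and no test. In whole lung, fewer cells of a type and less RNA per cell cannot be told apart.

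**Figure D1:**
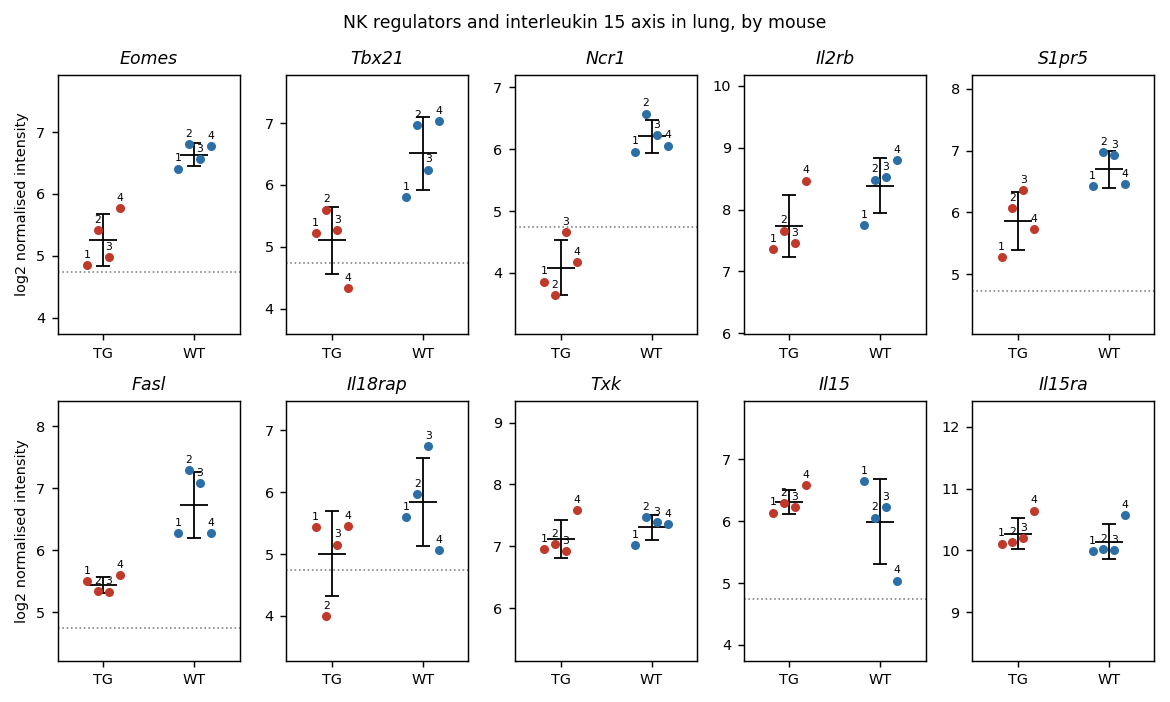
Log2 normalised intensity of each of the 10 genes in TG mice (red, left) and WT mice (blue, right); numbers are mouse numbers, the black bar is the mean with SD (n = 4 each), and the dotted line is the floor at 4.74. Each panel spans the same number of log2 units. The groups do not overlap in Eomes, Tbx21, Ncr1, S1pr5 and Fasl, and all 4 transgenic values of Ncr1 lie under the floor.

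Ncr1 encodes NKp46, the activating receptor by which NK cells are recognised in mice. Its level was 3.86, 3.64, 4.66 and 4.18 in TG mice 1 to 4, against 5.96, 6.57, 6.23 and 6.06 in WT mice 1 to 4. All 4 transgenic values were under the floor and all 4 wild-type values above it. The means were 4.08 ± 0.44 in transgenic and 6.21 ± 0.27 in wild-type lung (SD, n = 4 each). Set against the floor, the transgenic level was at least 2.77-fold lower (fitted log2 difference -2.12, SE 0.24, limma adjusted p = 0.0150), and by p it stood at rank 26 of the 20863 genes. The call was lost without TG mouse 1 or 4 or WT mouse 2, 3 or 4, with adjusted p of 0.0521 to 0.0725. Without both mice numbered 4 the difference was -2.20 (adjusted p = 0.0995). Over the 24 alternatives the adjusted p ran from 0.00376 to 0.142.

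The T-box factors had lower values in every transgenic mouse than in any wild-type mouse, and neither passed. Eomes, which NK cells need to mature and which marks them off from other innate lymphoid cells, had 4.86, 5.42, 4.98 and 5.78 in TG mice 1 to 4, against 6.41, 6.80, 6.56 and 6.77 in WT mice 1 to 4. Its difference was -1.38 (SE 0.22, limma adjusted p = 0.0675), with means of 5.26 ± 0.42 in transgenic and 6.64 ± 0.18 in wild-type lung (SD, n = 4 each). The call turned on the processing: Eomes passed in 7 of 24 alternatives, among them without the genes under the floor in both groups (adjusted p = 0.0307) and without TG mouse 4 (0.0445), within a range of 0.0120 to 0.700. A second, dimmer Eomes spot had 6.00, 4.08, 4.56 and 3.86 in TG mice, against 3.84, 3.61, 4.13 and 3.45 in WT mice. Only TG mouse 1 exceeded the floor on that spot, so it gives no usable direction. Averaging both spots brought the Eomes difference to -0.26.

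Tbx21, which acts with Eomes and also directs T helper type 1 cells, had 5.23, 5.60, 5.27 and 4.33 in TG mice 1 to 4, against 5.81, 6.96, 6.25 and 7.04 in WT mice 1 to 4. The gap between the groups was narrow, from 5.60 in TG mouse 2 to 5.81 in WT mouse 1, and the mice numbered 4 were the lowest transgenic and the highest wild-type values. The difference was -1.41 (SE 0.36, limma adjusted p = 0.253), and -0.97 without both mice numbered 4 (adjusted p = 0.350; range over alternatives 0.158 to 0.479).

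The promoters of 8 of the 10 genes, with 11 start sites, were found in RefSeq's table (build GRCm38.p6); Il15 and Il2rb are named only. Shown here are the 250 bases before the start of the 3 genes with the smallest p-values, Ncr1 (chr7:4337465-4337714, plus strand), Eomes (chr9:118477939-118478188, plus strand) and Fasl (chr1:161788496-161788745, minus strand), the first listed start for each, 5′ to 3′ on the gene's strand. Capitals mark any match, on either strand, to AP-1 (TGANTCA, the motif of Fra-2 and its partners), T-box (GGTGTGA), Runx (TGTGGT) or STAT (TTCNNNGAA).
Ncr1: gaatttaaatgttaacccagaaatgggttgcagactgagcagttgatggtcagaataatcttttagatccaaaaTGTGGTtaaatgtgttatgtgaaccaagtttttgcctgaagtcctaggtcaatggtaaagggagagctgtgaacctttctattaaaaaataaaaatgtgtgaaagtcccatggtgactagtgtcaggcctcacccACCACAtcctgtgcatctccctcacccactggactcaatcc
Eomes: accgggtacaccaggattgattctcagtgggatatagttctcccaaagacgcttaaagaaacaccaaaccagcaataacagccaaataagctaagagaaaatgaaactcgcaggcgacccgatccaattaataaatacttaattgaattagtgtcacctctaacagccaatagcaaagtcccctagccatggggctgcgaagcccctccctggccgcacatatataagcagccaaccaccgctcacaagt
Fasl: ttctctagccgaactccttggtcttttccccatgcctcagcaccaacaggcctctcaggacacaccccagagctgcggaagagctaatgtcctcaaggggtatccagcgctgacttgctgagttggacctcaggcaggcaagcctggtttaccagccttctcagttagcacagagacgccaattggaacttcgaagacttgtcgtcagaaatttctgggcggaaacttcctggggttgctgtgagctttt
Ncr1 held 2 Runx matches, at 176 to 171 and at 41 to 36 bases before the start, and no match of the other motifs. Eomes and Fasl held no match to any of the 4 motifs in this window. Over the 11 start sites, 3 held Runx (both of Ncr1 and the second of Txk), 1 held AP-1 (the second of Il15ra, at 30 to 24 bases before the start), and T-box and STAT were found at 0. The windows of both Ncr1 starts overlap and hold the same 2 Runx matches, so they do not count as separate. Of 32851 promoter windows of the same length, 14% held Runx, 6.75% AP-1, 3.33% T-box and 7.02% STAT. The motifs overlapped each other nowhere in the windows shown. A match describes letters, not binding, and a window without one says nothing of the factor.

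Fasl, the ligand with which NK and T cells trigger death through Fas, had 5.49, 5.34, 5.33 and 5.60 in TG mice 1 to 4, against 6.28, 7.29, 7.08 and 6.27 in WT mice 1 to 4. The transgenic values lay within a narrow band below all wild-type values. Its means were 5.44 ± 0.13 in transgenic and 6.73 ± 0.53 in wild-type lung (SD, n = 4 each), a difference of -1.29 (SE 0.25) that did not pass (limma adjusted p = 0.150). Weighting the arrays by quality brought it past the threshold (adjusted p = 0.0450; range over alternatives 0.0450 to 0.399).

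S1pr5, the sphingosine 1-phosphate receptor by which mature NK cells leave bone marrow and lymph nodes, had 5.28, 6.07, 6.36 and 5.74 in TG mice 1 to 4, against 6.42, 6.98, 6.93 and 6.46 in WT mice 1 to 4. TG mouse 3 came within reach of WT mice 1 and 4 without overlap. The difference was -0.84 (SE 0.26, limma adjusted p = 0.361; 95% interval -1.42 to -0.25, not adjusted for the number of genes).

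Il2rb, the beta chain through which interleukin 15 and interleukin 2 signal, had 7.37, 7.66, 7.46 and 8.47 in TG mice 1 to 4, against 7.75, 8.48, 8.52 and 8.80 in WT mice 1 to 4. The groups overlapped, through TG mouse 4 and WT mouse 1. The difference was -0.65 (SE 0.30, limma adjusted p = 0.576), with a 95% interval of -1.35 to 0.04. It was -0.89 without TG mouse 4.

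Il18rap, the accessory chain of the IL-18 receptor, had 5.43, 4.00, 5.15 and 5.45 in TG mice 1 to 4, against 5.59, 5.97, 6.75 and 5.07 in WT mice 1 to 4. WT mouse 4 lay below 3 of the transgenic mice, and TG mouse 2 was under the floor. The difference was -0.84 (SE 0.43, limma adjusted p = 0.611; 95% interval -1.83 to 0.15). It moved to -0.50 without TG mouse 2 and to -0.53 without WT mouse 3. Txk, a Tec-family kinase of T and NK cells, had 6.96, 7.04, 6.92 and 7.58 in TG mice 1 to 4, against 7.02, 7.47, 7.39 and 7.36 in WT mice 1 to 4. TG mouse 4 was the highest of all 8. The Txk difference was -0.19 (SE 0.18, limma adjusted p = 0.795), with a 95% interval of -0.61 to 0.24. It was -0.34 without TG mouse 4 and -0.12 without TG mouse 3.

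**Figure D2:**
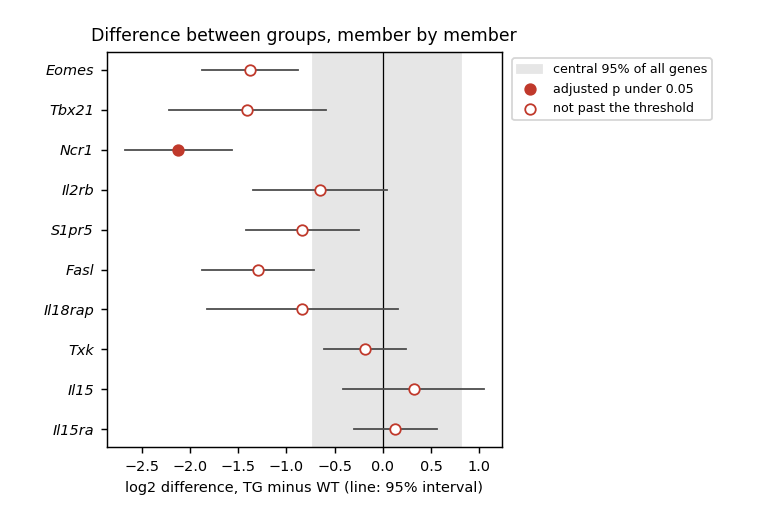
Fitted log2 difference (TG minus WT, 4 mice each) of each gene, with its 95% interval as a line; the filled point passed the test over all genes and open points did not. The grey band holds the central 95% of all 20863 genes, -0.72 to 0.81. Ncr1 stands farthest left at -2.12, and Il15 (0.32) and Il15ra (0.13) are the only points above 0.

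The supply side of the axis showed no call in either direction. Il15, the cytokine itself, had 6.14, 6.29, 6.23 and 6.58 in TG mice 1 to 4, against 6.65, 6.06, 6.22 and 5.04 in WT mice 1 to 4. WT mouse 4 was low and the other 3 wild-type values spanned the transgenic ones. The difference was 0.32 (SE 0.32, limma adjusted p = 0.796), and the 95% interval, -0.41 to 1.05, leaves room for a change of either sign. Its sign rested on WT mouse 4: without that mouse it was -0.00011, and without both mice numbered 4 it was -0.09.

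Il15ra, which holds interleukin 15 on the presenting cell, had 10.11, 10.14, 10.20 and 10.64 in TG mice 1 to 4, against 9.99, 10.02, 10.001 and 10.57 in WT mice 1 to 4. In both groups mouse 4 stood above the other 3, which lay close together. The difference was 0.13 (SE 0.19, limma adjusted p = 0.869; 95% interval -0.30 to 0.56). It was 0.0049 without TG mouse 4 and 0.27 without WT mouse 4. The second Il15ra spot, annotated to another transcript record of the gene, had 6.71, 6.38, 6.88 and 6.26 in TG mice, against 6.83, 6.72, 6.30 and 6.36 in WT mice, a difference of 0.01 (SE 0.19). Whether Il15 and Il15ra differed from the 8 lymphocyte genes in their response was not tested.

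The mice themselves differed across the 10 genes. TG mouse 4 was the highest transgenic value in 7 of the 10 (all but Tbx21, Ncr1 and S1pr5) and TG mouse 1 the lowest in 5. Among wild-type mice, mouse 1 was the lowest in 7 and mouse 2 the highest in 5. WT mouse 4 was the highest in 3 (Tbx21, Il2rb and Il15ra) and the lowest in 3 (Fasl, Il18rap and Il15).

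Lists of marker genes for the cells that could carry these transcripts are given beside them. The lists were chosen with earlier results of these data known, so a shared direction within a list is description and no test. All 8 NK markers (Klrb1c, Klre1, Klra8, Klrk1, Gzma, Gzmb, Prf1 and Nkg7) had negative differences, with a median of -1.79. Of the 8, 3 passed and fell: Klra8, Klre1 and Gzma. Klra genes are near copies, so the Klra8 spot may read several of them. The transgenic means of Klre1 and Klrk1 were under the floor. The summed intensity of the 8 was 1368 to 2196 in transgenic mice, against 8372 to 14908 in wild-type mice. Of 23 NK surface receptors and adaptors outside the Klr family, described below, 14 had positive and 9 negative differences (median 0.08). All 12 T cell markers, among them Cd3d, Cd5 and Cd28, had positive differences. They ran from 0.03 in Cd4 to 1.40 in Cd5, with a median of 1.08. Groups did not overlap in 9 and overlapped in Cd3e, Cd4 and Cd8b1. None of the 12 passed (limma, 9 at an unadjusted p under 0.05). Over all genes, 0.0911% passed and fell, and groups did not overlap with transgenic lung higher in 3.99%. At an unadjusted limma p under 0.05, 5.33% of all genes were higher and 3.82% lower in transgenic lung. The summed intensity of the T cell markers was 7149 to 9665 in transgenic mice, against 3518 to 6215 in wild-type mice. WT mouse 4 was the lowest wild-type mouse in all 12. Its mean log2 level over the T cell list was 7.14, against 7.94 to 8.25 in the other wild-type mice. That of TG mouse 4 was 9.05, against 8.59 to 8.75 in the other transgenic mice. B cell markers had positive differences in 6 of 6 measured, with none past the threshold (limma, 1 at an unadjusted p under 0.05). Their sums were 9816 to 22634 in transgenic and 3446 to 11808 in wild-type mice. WT mouse 4 was the lowest wild-type mouse in all 6. The mean log2 level over the list was 7.63 in WT mouse 4, against 8.58 to 9.12 in the other wild-type mice. It was 9.78 in TG mouse 4, against 8.66 to 9.20 in the other transgenic mice. How far the positive differences of the T and B cell lists rest on the mice numbered 4 was not tested. No T or B cell marker had a mean under the floor in both groups. Dendritic cell and monocyte markers, for cells that can present interleukin 15, were split, with 3 of 8 positive and a median of -0.15. Their sums were 32019 to 50157 in transgenic and 45834 to 49129 in wild-type mice, most of it from Siglech. Of these 8, 0 passed (limma; 3 at an unadjusted p under 0.05), and the mean of Xcr1 was under the floor in both groups. The part of these cell types in the differences of the 10 genes was not tested.

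**Figure D3:**
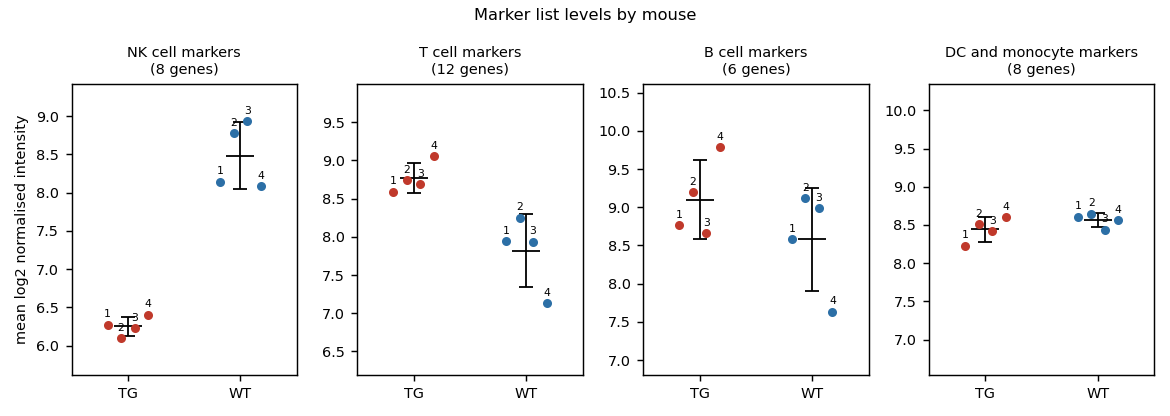
Mean log2 normalised intensity over the measured genes of 4 marker lists in TG mice (red, left) and WT mice (blue, right), with mouse numbers; the black bar is the mean with SD (n = 4 each). The NK list spans 6.10 to 6.41 in transgenic and 8.08 to 8.94 in wild-type mice, the T cell list 8.59 to 9.05 in transgenic and 7.14 to 8.25 in wild-type mice, and the B cell and dendritic cell lists overlap between the groups.

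Around the 10 genes, 7 lists of pathway partners held 127 measured genes of 133. None passed over all genes (limma), where 0.216% of all genes did. At an unadjusted p under 0.05, 17 of the 127 (13.4%) were higher and 7 (5.51%) lower in transgenic lung, against 5.33% and 3.82% of all genes. Groups did not overlap in 10 with transgenic lung higher and in 3 with it lower, against 3.99% and 2.54% of all genes. The median difference of the 127 was 0.07.

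The shared machinery of the interleukin 15 receptor was split in sign. Of 25 genes of common gamma chain signalling, 15 had positive and 10 negative differences (median 0.05). Il2rg, the common gamma chain, differed by 0.65 (SE 0.24, limma adjusted p = 0.468), with 9.61, 9.62, 9.65 and 10.14 in TG mice 1 to 4, against 9.28, 9.32, 9.39 and 8.46 in WT mice 1 to 4. The groups did not overlap, and mouse 4 was the farthest out in each. Il21r, the IL-21 receptor of the same family, differed by 0.71 (SE 0.25, limma adjusted p = 0.431). Of 15 measured genes of the IL-12, IL-18 and interferon gamma axis, 6 were positive and 9 negative (median -0.12). Ifng, the interferon that NK and T cells secrete, had a transgenic mean under the floor and was at least 1.51-fold lower in transgenic lung, without passing (fitted log2 difference -0.69, SE 0.19, limma adjusted p = 0.304). Il27ra, a receptor chain for interleukin 27, differed by 0.86 (SE 0.19, limma adjusted p = 0.193).

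Other transcription factors of NK and innate lymphoid development were centred near the median of all genes: 17 of 27 were positive (median 0.04). Tcf7, a factor of T cells and of early innate lymphoid progenitors, came nearest to the threshold at 0.85 (SE 0.14, limma adjusted p = 0.0846). It passed in 6 of the alternatives, among them the one without dim genes. Runx1, a Runx factor of blood cell development, differed by -0.38 (SE 0.14, limma adjusted p = 0.468). Of 23 NK surface receptors and adaptors outside the Klr family, 14 were positive and 9 negative (median 0.08). Cd7, a surface protein of NK and T cells, differed by -0.73 (SE 0.14, limma adjusted p = 0.150), and Cd27, a costimulatory receptor of T cells and of less mature NK cells, by 0.89 (SE 0.23, limma adjusted p = 0.258). In both genes the groups did not overlap.

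Partners of S1pr5, Fasl and Txk gave no call either. Among 13 trafficking genes 5 were positive (median -0.10), with Spns2, the transporter that releases sphingosine 1-phosphate, at 0.70 (SE 0.15, limma adjusted p = 0.193) and Ccr7, the lymph node homing receptor, at 0.93 (SE 0.38, limma adjusted p = 0.511). Among 11 death ligands, receptors and adaptors 9 were positive (median 0.27), with Lta, a lymphotoxin of lymphocytes, at 0.73 (SE 0.17, limma adjusted p = 0.217) and Tnfrsf1b at 0.60 (SE 0.27, limma adjusted p = 0.559). Among 13 genes of Tec kinase and proximal receptor signalling 11 were positive (median 0.17). Lat, the adaptor of the T cell receptor and also a T cell marker above, differed by 1.15 (SE 0.21, limma adjusted p = 0.114), and Zap70, the kinase upstream of it, by 0.43 (SE 0.19, limma adjusted p = 0.541).

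**Figure D4:**
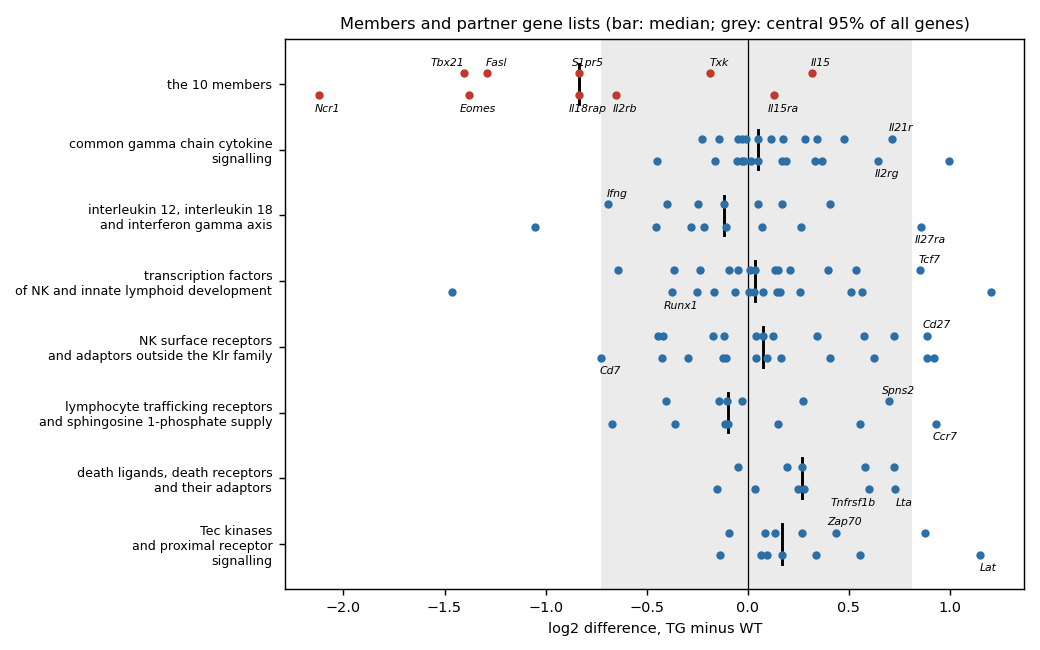
Log2 difference (TG minus WT, 4 mice each) of the 10 genes (red) and of the measured genes in 7 partner lists (blue), 1 point per gene, with the list median as a black bar and the central 95% of all genes in grey; points are set at 2 heights only to keep them apart. The median of the 10 lies at -0.84, and those of the partner lists between -0.12 and 0.27.

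The genes whose pattern over the 8 mice lay nearest to 4 of the 10 were found among 14311 genes with a mean above the floor, by the root mean square (RMS) difference between profiles, each centred on its own mean. Nearest to Ncr1 were Marco, a scavenger receptor of macrophages (RMS 0.25), Klra9 (0.34) and Klra7 (0.37), against a median of 1.14 for Ncr1 over the 14311. The 4 transgenic values of Ncr1 were under the floor, so its distances and their order rest in part on values not above it. Nearest to Eomes were Nrgn (0.25), Gp9, a platelet glycoprotein (0.28), and Cd163l1 (0.30), against a median of 0.79. Nearest to Il2rb were Gpcpd1 (0.16), Klrd1, an NK receptor chain that pairs with NKG2 (0.16), and Ifi211 (0.17), against 0.58. Nearest to Il15 were Cort, Atg4b and Pacs1, at 0.13 to 0.15, against 0.52. Both groups enter these profiles, so a gene with a like group difference is near by construction. Klra genes are near copies, and a spot may read several of them.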

How the data were processed

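Lung RNA of 4 Fra-2 TG and 4 WT mice was read on single-colour Agilent arrays, labelled with Cy5 per the labels' protocols. The table deposited by the authors holds linear intensity for 62976 spots. Versions 2.15.1 of R and 3.14.4 of limma appear in the submitters' processing notes, without the steps they served. The arrays shared 1 distribution, with a median of 4.74 on the log2 scale. No scanner flags were used, so that median served as the floor; where a group's mean lay under it, the fold is a bound, with each dim array raised to the floor.

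Gene symbols came from the platform annotation, with 31511 spots unnamed here, and were updated through RefSeq accessions (29050 spots matched, 2933 symbols replaced). The brightest spot by mean over 8 arrays stood for each of 20863 genes, 6086 of which had more than 1 spot. Group means of log2 intensity were compared with limma 3.58.1 under R 4.3.3 (lmFit and eBayes; no other covariate and no offset), and p-values were adjusted by Benjamini-Hochberg over all genes. The fit was first tested on simulated data. Files were read by version 1.17.8 of the data.table package, and plotting used Python 3.11.15 with matplotlib 3.10.9.

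The 10 genes, the 16 lists and the tests were chosen with earlier results of these data known, so no p adjusted over a list is given. From each partner list, the genes past the threshold or else the 2 with the smallest p were named; nearest profiles were given for Ncr1, Eomes, Il2rb and Il15. No member was removed by a filter. The replicates are separate mice. Their number limits the precision, and no batch is recorded in the labels. The labels do not say whether same-numbered mice are pairs, and numbers were not used as pairs. Deviations of same-numbered mice correlated at -0.01 to 0.05 over genes, against -0.08 to 0.04 for mice of different numbers. Whether same-numbered mice shared a batch was not tested. Alternatives covered scaling, offsets, filters, variance models, spot choice, gene names, a replicate block and mice left out.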

Additional observations from a re-analysis of the deposited data

Results flagged for a closer look

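In 52 groups of 4 mice (the 12 spots of the 10 genes and the 14 named partners), 6 had 1 mouse far from the other 3, by the gap to its neighbour over the group's range (Dixon's test). Chance flags about 1 in 20 such groups. Il15ra stood at 10.6 in TG mouse 4, against 10.1 to 10.2 in the other transgenic mice, and at 10.6 in WT mouse 4, against 9.99 to 10.02 in the other wild-type mice. Il2rg stood at 10.1 in TG mouse 4, against 9.61 to 9.65, and at 8.46 in WT mouse 4, against 9.28 to 9.39. Ccr7 stood at 12.8 in TG mouse 4, against 11.6 to 11.7 in the other transgenic mice. Spns2 stood at 11.7 in TG mouse 1, against 12.1 to 12.2 in the other transgenic mice. Of the 6, 5 were mice numbered 4, the mice with the lowest correlation with their groups.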

How the results depend on the processing

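Across 24 alternatives the differences of Eomes, Tbx21, Ncr1, Il2rb, S1pr5, Fasl, Il18rap and Txk stayed negative and that of Il15ra stayed positive. Not all of the 24 could move a sign. The dim filter, the eBayes models, the adjustment over spots and the replicate block leave the fitted difference as it was. Spot choice can move only Eomes and Il15ra, the genes with more than 1 spot. Il15 turned negative without WT mouse 4 (-0.00011), without both mice numbered 4 (-0.091) and with an offset of 32 and those mice left out (-0.068; this combination was chosen after seeing the data). With each mouse left out in turn it ran from -0.00011 to 0.537. The number of the 10 genes past the threshold was 1. It became 2 with an offset of 16 or 32, without dim genes, with an intensity trend in eBayes, at an adjusted p under 0.1, or with the offset of 32 and both mice numbered 4 left out. It became 3 with array weights, 0 without both mice numbered 4, and 0 to 1 with each mouse left out in turn. The replicate block, on numbers that the labels do not describe as pairs, gave 0 (Ncr1 limma adjusted p = 0.142). Ncr1 was called in 17 of the 24, Eomes in 7 and Fasl in 1. The median of the 10 was -0.58 with an offset of 32, which shrinks dim differences, and -1.01 to -0.68 with each mouse left out. The count of partner genes past the threshold, 0, became 1 (Tcf7) with an offset of 16 or 32, without dim genes, with the trend, with array weights or at an adjusted p under 0.1, and 5 with the offset of 32 and both mice numbered 4 left out. Over all genes the count of 45 ranged from 5 under the block to 200 with that combination. Other causes of these moves were not tested. Spots near background, as for Ncr1 in transgenic lung, give bounds only.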

Other observations

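Marker lists of further cell types give the setting of the 10 genes. Neutrophil markers had negative differences in 6 of 6 (median -0.34), with none past the threshold (limma; 0 at an unadjusted p under 0.05) and summed intensities of 59352 to 95232 in transgenic and 78185 to 141984 in wild-type mice. Of 5 measured alveolar macrophage markers, Marco passed and fell (-2.08), and the other 4, Chil3, Siglecf, Pparg and Mrc1, had positive differences of 0.05 to 0.29 that did not pass. The list summed to 39689 to 72323 in transgenic and 28385 to 56506 in wild-type mice, most of it from Chil3. Of 5 thymocyte markers Dntt, the polymerase of receptor rearrangement, differed by 1.24 without passing (limma adjusted p = 0.150), while Rag1, Rag2 and Ptcra had means under the floor in both groups. That list summed to 1215 to 1342 in transgenic and 759 to 1147 in wild-type mice, nearly all of it from Cd1d1, which other cell types express too. Only 3 of 5 markers of group 2 innate lymphoid cells were measured, and the means of Il5 and Il13 were under the floor in both groups; the list summed to 351 to 564 in transgenic and 382 to 670 in wild-type mice, nearly all of it from Gata3, which T cells also express.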
